A study of Mus musculus with 26 samples.

Results

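Open chromatin of D2 medium spiny neurons in cocaine relapse (D2 CC) was compared with that after acute cocaine (D2 SC), by taking every peak of the D2 CC list and of the D2 SC list on chromosomes 1 to 19 and X. A peak that shared at least 1 bp with a peak of the other list was called shared, and one farther than 1 kb from any peak of the other was called CC-only or SC-only. The comparison holds 127214 peaks, 68424 in D2 CC and 58790 in D2 SC, of 399299 in the 8 lists of the series. Of these, 13210 were CC-only, 3936 were SC-only, and 52919 D2 CC peaks and 53904 D2 SC peaks were shared. A further 2295 D2 CC peaks and 950 D2 SC peaks lay within 1 kb of the other list without overlap.

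The series mapped accessible DNA by ATAC-seq, in which a transposase cuts open chromatin and adds sequencing adapters, in nuclei of D1 and D2 medium spiny neurons (MSNs) of mouse brain. Its title places the work in the nucleus accumbens, and its states are cocaine relapse (CC), acute cocaine (SC), chronic cocaine with a long withdrawal (CS) and baseline (SS). D2 CC and D2 SC are 1 library and 1 peak list each, so no replicate error exists, no test or p-value could be had, and library and state cannot be told apart. Nor can fewer nuclei with an open site and less opening per nucleus. Strain, age, sex, dose, schedule, the number of animals behind a library and the way nuclei were separated are not given in the sources used here. All intervals in parentheses are exact 95% binomial intervals and cover counting error only.

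MSNs are the GABAergic projection neurons of the striatum. D2 MSNs carry the dopamine receptor Drd2, which lowers cAMP through Gi/o proteins, and express the enkephalin precursor Penk and the adenosine receptor Adora2a. D1 MSNs carry Drd1, which raises cAMP, and the dynorphin precursor Pdyn. Open promoters are largely common to cell types, while open sites inside genes and between them, many of them enhancers, differ more between cells and states.

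D2 CC covered 39.2 Mb with a median peak width of 563 bp, and D2 SC covered 32.0 Mb with a median of 547 bp. Depth can be read from the authors' fold values, ratios of peak signal to the caller's background, whose steps gave a background pileup of 5.85 reads in D2 CC and 4.48 in D2 SC, 1.31 times as deep in D2 CC. The part of this depth difference in the results was not tested beyond the lists of equal length given below. Both lists held 7 peaks on patch scaffolds of the assembly, as did D2 SS, and D1 SS held 4. D2 CS held 70, D1 SC 73, D1 CS 114 and D1 CC 137. Whether this split of the lists bears on the presence shares given below was not tested. Promoter peaks of marker genes did not separate the labelled cell type from the other. Of 14 D2 MSN genes, 13 had a promoter peak in D2 CC and 13 in D2 SC. Drd2, Penk, Adora2a, Gpr6 and Sp9 had one in both, while Gpr52 had no peak in either list. Of 12 D1 MSN genes, 11 had a promoter peak in D2 CC and 10 in D2 SC, with Drd1 among them in both. Mog, Mag, Mobp, Cx3cr1, Tmem119, Cldn5, Gfap, Slc17a6, Neurod6, Sst and Pvalb, markers of glia, vessels, cortical neurons and interneurons, had no peak in either list. Other markers of these cells did. A D2 CC peak was held by 6 of 10 astrocyte, 5 of 12 oligodendrocyte and 4 of 11 microglial markers. The same held for 7 of 10 vascular, 4 of 12 interneuron and 6 of 11 cortical excitatory markers. Whether nuclei of other cell types were present was not tested.

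Sequences of 4 promoters are given first as single examples, not as typical members of their sets. They are Nr4a2 and Pdyn under CC-only peaks, Flot2 under an SC-only peak, and Rpp40, one of the 5 strongest shared peaks. Each is the RefSeq window from 250 bases before to 50 after the gene's start in build GRCm38.p6 (mm10), read 5′ to 3′ on the gene's strand. Capitals mark letters of any of the 9 motifs searched on both strands, which are described with the promoter windows further down.
Nr4a2 promoter, chr2:57123954-57124253, minus strand: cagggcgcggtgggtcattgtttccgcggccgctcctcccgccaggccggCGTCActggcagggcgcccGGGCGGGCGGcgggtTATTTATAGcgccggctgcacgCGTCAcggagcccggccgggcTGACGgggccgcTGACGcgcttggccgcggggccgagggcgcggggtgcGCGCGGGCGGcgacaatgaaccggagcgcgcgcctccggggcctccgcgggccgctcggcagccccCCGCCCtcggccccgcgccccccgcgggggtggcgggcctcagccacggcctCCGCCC
Pdyn promoter, chr2:129699889-129700188, minus strand: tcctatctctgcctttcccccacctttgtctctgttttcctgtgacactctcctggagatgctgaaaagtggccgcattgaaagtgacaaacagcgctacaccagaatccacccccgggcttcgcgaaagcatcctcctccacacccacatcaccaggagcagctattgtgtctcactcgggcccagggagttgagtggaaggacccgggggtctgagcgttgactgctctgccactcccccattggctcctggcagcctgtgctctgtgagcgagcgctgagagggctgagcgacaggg
Flot2 promoter, chr11:78037681-78037980, plus strand: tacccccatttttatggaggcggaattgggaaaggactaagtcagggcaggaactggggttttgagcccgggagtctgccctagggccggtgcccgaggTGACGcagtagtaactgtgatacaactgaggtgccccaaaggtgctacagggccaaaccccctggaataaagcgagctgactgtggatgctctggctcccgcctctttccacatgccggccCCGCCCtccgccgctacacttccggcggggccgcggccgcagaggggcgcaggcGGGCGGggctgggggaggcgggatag
Rpp40 promoter, chr13:35906298-35906597, minus strand: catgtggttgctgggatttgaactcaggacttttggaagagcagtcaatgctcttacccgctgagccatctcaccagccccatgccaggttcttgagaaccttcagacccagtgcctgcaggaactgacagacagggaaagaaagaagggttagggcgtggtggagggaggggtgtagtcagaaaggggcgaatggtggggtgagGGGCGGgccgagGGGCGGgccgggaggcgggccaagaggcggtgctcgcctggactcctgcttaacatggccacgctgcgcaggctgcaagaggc
Nr4a2 encodes an immediate-early nuclear receptor, Flot2 a lipid-raft scaffold protein, and Rpp40 a subunit of ribonuclease P. The Nr4a2 window was 81.7% G and C, with a CpG count of 1.04 times the number expected from its bases. Both values lay above the medians of windows under CC-only peaks, 56.3% and 0.54. The Pdyn window, at 59% and 0.43, held none of the motifs. The Rpp40 window, at 61.3% and 0.45, had a CpG ratio below the median of 0.80 for windows with a peak in both lists.

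Most open sites were common to relapse and acute cocaine. Of the D2 CC peaks, 77.3% (77.0 to 77.7%) were shared, and of the D2 SC peaks 91.7% (91.5 to 91.9%). CC-only peaks made up 19.3% (19.01 to 19.60%) of the D2 CC list and SC-only peaks 6.7% (6.49 to 6.90%) of the D2 SC list, which is 3.36 CC-only peaks for each SC-only peak. By length the CC-only peaks held 11.3% of the bases in D2 CC and the SC-only peaks 3.59% of the bases in D2 SC. With the D2 CC list cut to its strongest 58790 peaks by q, equal in number to D2 SC, the shares were 12.7% CC-only and 11.3% SC-only. Most of the difference between the 2 shares was thus absent at equal list length, but that cut is not equal in q. It kept D2 CC peaks up to a q of 3.99e-06 and D2 SC peaks up to 0.0403. A site whose D2 CC peak was cut can therefore count as SC-only. With a q of at most 1e-05 in both lists the shares were 20.2% CC-only and 5.12% SC-only. By chromosome the CC-only share ran from 17.04% (16.0 to 18.1%) of the D2 CC peaks on chromosome 3 to 21.7% (19.6 to 24.0%) on chromosome 19, with 18.3% on X, and the intervals of chromosomes 3 and 19 did not overlap.

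Presence in the other list followed a peak's strength within its own, shown here in 10 groups of equal size by fold. In D2 CC, 48.8% of the weakest group were CC-only, 19.2% of the fifth, 2.97% of the seventh and 0 of 6843 in the strongest, which allows a share of up to 0.0539%. In D2 SC, 24.3% of the weakest group were SC-only, 4.00% of the fifth and 0 of 5879 in each of the strongest pair, which allows up to 0.0627%. All of the strongest 10000 peaks by q of D2 CC overlapped a D2 SC peak, and all of the strongest 10000 of D2 SC overlapped a D2 CC peak. The median fold was 3.38 for CC-only peaks against 4.96 for shared peaks of D2 CC, and 3.48 for SC-only peaks against 4.98 for shared peaks of D2 SC. Median widths were 292 bp for CC-only peaks and 608 bp for shared ones in D2 CC, and 249 bp for SC-only and 566 bp for shared ones in D2 SC. Fold is not scaled between lists, so it was set side by side only within a list.

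**Figure D1:**
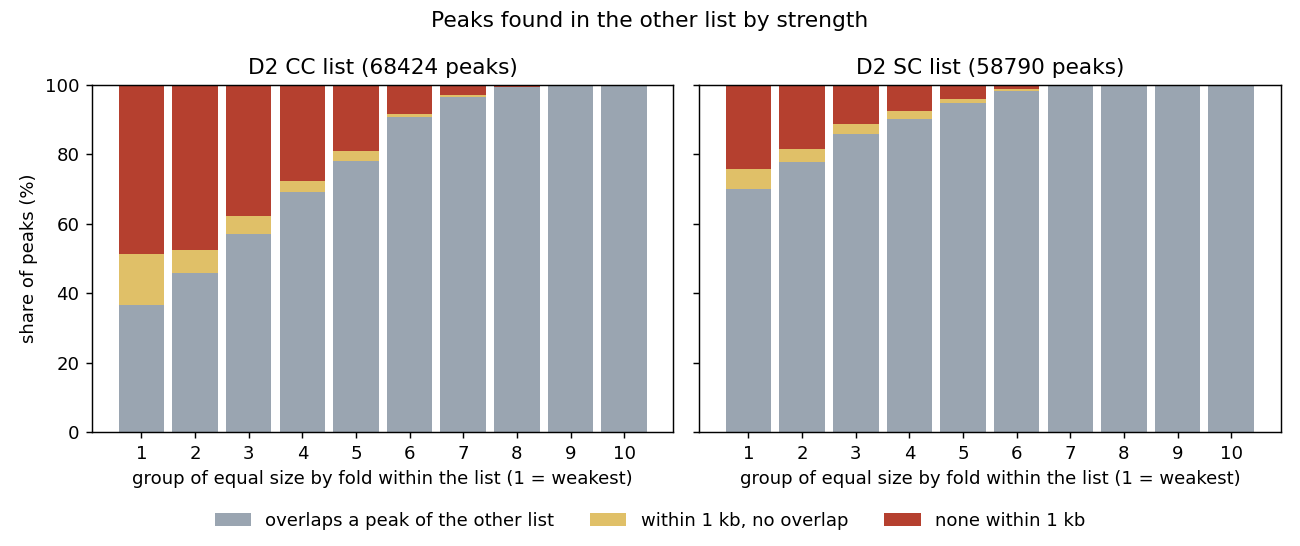
Share of peaks (%) that overlapped a peak of the other list, lay within 1 kb of one, or had none within 1 kb, in 10 groups of equal size by fold enrichment within the list (1 is the weakest), for D2 CC (left) and D2 SC (right). The CC-only share was 48.8% in the weakest group of D2 CC and 0 in its strongest, and the SC-only share was 24.3% in the weakest group of D2 SC.

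Shared sites were wider in D2 CC. In 50049 cases 1 D2 CC peak met exactly 1 D2 SC peak, and in 72.5% of these the D2 CC peak was the wider, with median widths of 612 bp in D2 CC and 575 bp in D2 SC. At promoters the D2 CC peak was wider in 77.5% of 13318 pairs, with medians of 769.5 and 693 bp in D2 CC and D2 SC. Across all pairs the fold in D2 CC and in D2 SC had a Spearman correlation of 0.88, given as a description across sites that share their library. In 1610 cases a D2 CC peak spanned 2 or more D2 SC peaks, and in 643 cases a D2 SC peak spanned 2 or more D2 CC peaks. One Adora2a promoter had 1 D2 CC peak of 820 bp over D2 SC peaks of 481 and 225 bp.

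Peaks found in 1 list lay away from promoters. Promoters, taken as up to 1 kb from a transcription start site (TSS) by the authors' distance, held 9.77% (9.26 to 10.3%) of CC-only peaks and 8.36% (7.51 to 9.27%) of SC-only peaks, against 26.6% of the shared peaks in D2 CC and 26.7% in D2 SC. Those within 250 bp of a TSS made up 5.31% of CC-only, 4.37% of SC-only and 21.2% of shared D2 CC peaks. Peaks at 1 to 3 kb made up 7.83% of CC-only, 7.49% of SC-only and 5.90% of shared D2 CC peaks. Gene bodies held 48.0% (47.2 to 48.9%) of CC-only, 46.1% (44.5 to 47.6%) of SC-only and 35.3% of shared D2 CC peaks. Intergenic DNA held 34.3% (33.5 to 35.2%) of CC-only, 38.03% (36.5 to 39.6%) of SC-only and 32.1% of shared D2 CC peaks. In promoter and gene-body shares the CC-only and SC-only sets were closer to each other than to the shared set, while in intergenic share the CC-only set was closer to the shared one.

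**Figure D2:**
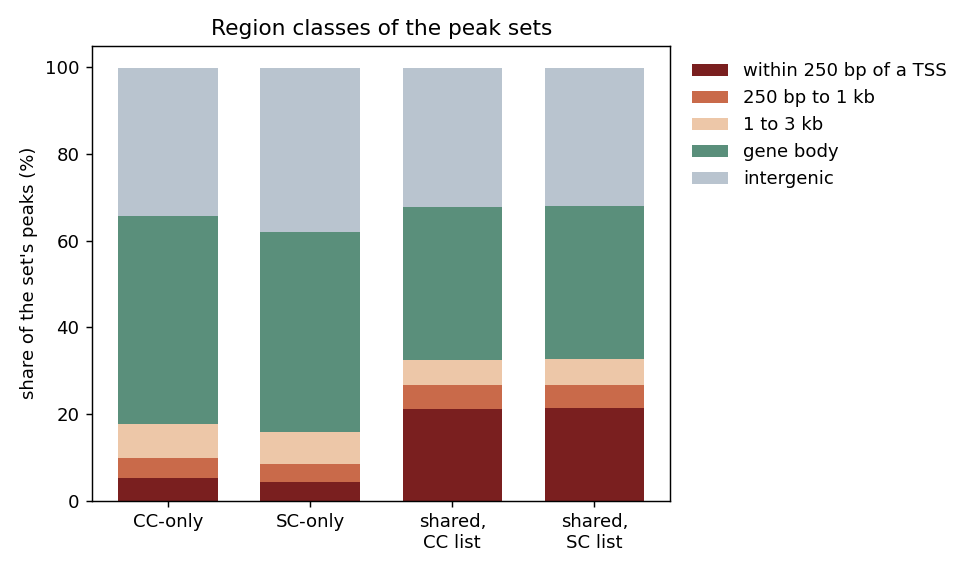
Share of each set's peaks (%) in the authors' region classes, for CC-only, SC-only and shared peaks of each list. Gene bodies hold 48.0% of CC-only and 46.1% of SC-only peaks, and the classes within 1 kb of a TSS hold 26.6% of the shared peaks of D2 CC.

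The lower promoter share was seen at matched strength too. Among D2 CC peaks with a fold of 3.5 to 4, 8.26% (7.40 to 9.19%) of the CC-only and 17.2% (16.4 to 18.1%) of the shared peaks lay at promoters. Among D2 SC peaks of the same fold, these shares were 8.14% (6.55 to 9.97%) for SC-only and 17.5% (16.6 to 18.5%) for shared peaks. Within gene bodies the median distance to the TSS was 38.8 kb for CC-only and 43.7 kb for SC-only peaks, and 43.6 kb for shared peaks of D2 CC. Protein-coding genes took 85.7% of the gene-assigned CC-only peaks, 84.8% of the SC-only and 86.3% of the shared D2 CC peaks. Long intergenic RNA genes took 5.70%, 5.74% and 5.67% of the CC-only, SC-only and shared D2 CC peaks.

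The other 6 lists were then searched for each peak. CC-only peaks were found in D2 SS, the baseline list of the same cell type, in 37.7% (36.8 to 38.5%) of cases, and SC-only peaks in 32.5% (31.0 to 34.0%), against 92.2% of shared D2 CC peaks. The D1 CC list, the longest, held 48.7% (47.9 to 49.6%) of CC-only and 42.8% (41.2 to 44.3%) of SC-only peaks, and 87.9% of shared D2 CC peaks. D1 CS held 19.9% of CC-only, 15.9% of SC-only and 66.4% of shared D2 CC peaks. D1 SC held 4.64%, D1 SS 2.73% and D2 CS 3.66% of CC-only peaks, and 3.53%, 2.16% and 3.30% of SC-only peaks. These 3 lists are the shortest, at 27898 to 28568 peaks, and held 46.0%, 51.0% and 43.7% of the shared D2 CC peaks. The CC-only share was the higher in each of the 6 lists, with overlapping intervals in D2 CS and D1 SS.

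In none of the other 6 lists were 4764 CC-only peaks (36.1%), 1620 SC-only peaks (41.2%) and 3.14% of shared D2 CC peaks. In all 6 were 17 CC-only peaks, 4 SC-only peaks and 17274 shared D2 CC peaks (32.6%). The most frequent pattern after absence from all was D1 CC alone, with 2204 CC-only and 678 SC-only peaks, followed by D2 SS alone with 1627 and 522 and by both together with 1553 CC-only and 381 SC-only peaks. Among CC-only peaks at promoters, 46.4% were in D2 SS and 70.8% in D1 CC, and 19.9% were in no other list. Of D2 CC peaks at a fold of 3.5 to 4, 39.2% of the CC-only and 82.6% of the shared peaks were in D2 SS. Width was not matched there, with medians of 296 bp for CC-only and 506 bp for shared peaks. Shared peaks are also by definition those found in another list. The difference in presence therefore cannot be told apart from the way the sets were formed.

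**Figure D3:**
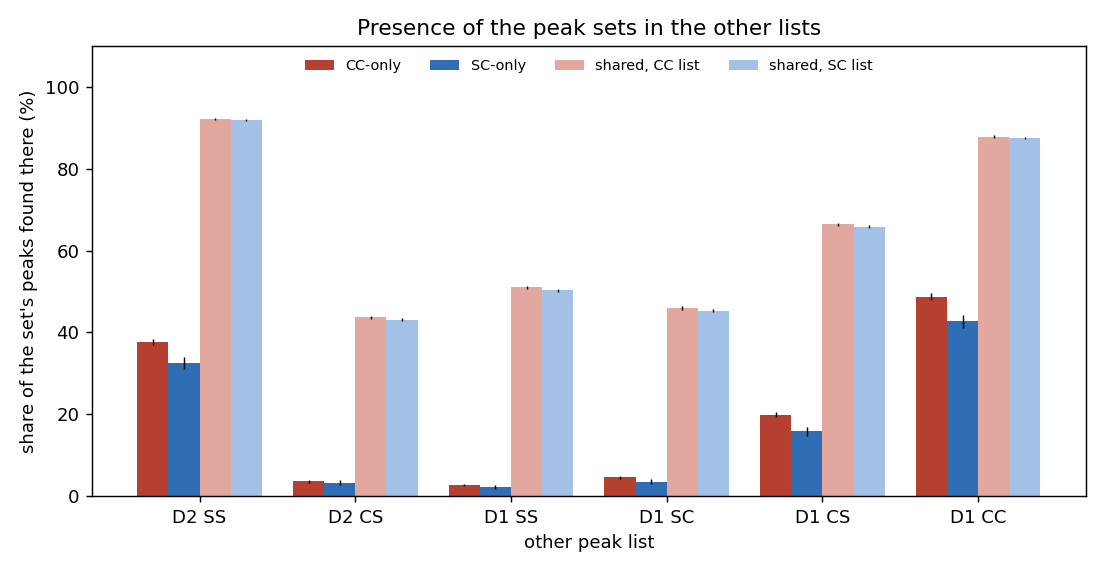
Share (%) of CC-only, SC-only and shared peaks that overlap a peak of each other list, with exact 95% intervals for counting error. CC-only bars stand at 37.7% in D2 SS and 48.7% in D1 CC, SC-only bars at 32.5% and 42.8%, and shared bars of the CC list at 92.2% and 87.9%.

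The D2 MSN list held 22 of all 8670 CC-only peaks with a gene name, and none of the 10 strongest CC-only peaks in genes. The first by fold lay in Tead4, a transcription factor gene of the Hippo pathway (chromosome 6, 128245979 to 128246564, mm10, 586 bp, fold 6.86), 29.3 kb from the TSS and 20.2 kb from the nearest D2 SC peak. It was also in D2 SS, D1 CS and D1 CC. Peaks followed in Rnf182, a ubiquitin ligase gene (chromosome 13, 43633223 to 43633509, fold 6.27), and in the imprinted splicing gene Snrpn (chromosome 7, 60047728 to 60048231, fold 6.13). The remaining peaks of the first 10 lay in the neuronal Ras-like gene Rit2 (6.10), Ubac2 (5.87), Farp1 (5.76), Lypd1, a modulator of nicotinic receptors (5.75), the noncoding AC164556.2 (5.74), the actin regulator Carmil1 (5.74) and Pkhd1 (5.69). AC164556.2 was in all 6 other lists and Pkhd1 in none, and 8 of these 10 peaks were in D2 SS. Against the whole list these were not extreme values, since the strongest shared peak had a fold of 18.2.

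Promoters led by fold were those of AC153556.1, Tesmin and Ankdd1a, each at a fold of 5.69, of Gm38584 (5.54) and of 1810019N24Rik (5.44). The Tesmin peak (chromosome 19, 3388822 to 3389279) covered a promoter of a gene known for expression in testis, and was held by all other lists except D1 SS. The strongest CC-only peak anywhere was intergenic (chromosome 19, 48809772 to 48810363, fold 7.15), 4.27 kb from Sorcs3, a gene of a neuronal sorting receptor, and was also in D2 SS and D1 CC. Other intergenic peaks of the first 5 had a fold of 6.42 to 6.86 and all lay in D2 SS.

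Among SC-only peaks in genes, the first lay in Slco5a1, an orphan transporter gene of the organic anion family (chromosome 1, 12920676 to 12920979, fold 6.38), and was otherwise found in D2 SS alone. It was followed by peaks in AC154765.1 (6.02) and Gm17173 (5.84), and by promoter peaks of the microRNA gene Mir6546 (5.65) and of P2rx7, an ATP-gated channel gene (chromosome 5, 122649519 to 122649747, fold 5.65). Both of those promoter peaks were in 5 of the other 6 lists, D1 SS being the exception, and had no D2 CC peak within 19.4 and 33.6 kb. The rest of the first 10 were in the postsynaptic scaffold gene Tanc2 (5.47), Arhgap15 (5.47), the potassium channel gene Kcnb2 (5.38), the signalling adaptor gene Gab2 (5.32) and Gm13277 (5.29). The Flot2 promoter peak (chromosome 11, 78037771 to 78038371, fold 5.11), whose window is printed above, was also in 5 of the other lists. The 5 strongest SC-only peaks of the authors' intergenic class had a fold of 5.47 to 5.86, and all were in D2 SS. The first of them (chromosome 16, 74767165 to 74767513) overlaps the RefSeq span of Robo2.

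The 5 strongest shared peaks by D2 CC fold included the promoters of AU041133 (14.3) and Rpp40 (chromosome 13, 35905747 to 35906719, fold 14.2), a noncoding site 2.21 kb from AC160116.1 (13.9) and intergenic sites on chromosomes 12 (18.2) and 3 (14.0). Each was in all 6 other lists.

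Peaks found in 1 list were then counted by gene. Counts here are peaks the authors assigned to the gene, and 28.4% of the 18142 genes with a peak had at least 1 CC-only peak, 10.6% at least 1 SC-only peak. Ptprn2, a protein of dense-core vesicles, had 20 CC-only peaks among 51 in D2 CC and 1 SC-only among 33 in D2 SC. Celf2, a splicing regulator, had 20 CC-only among 39 in D2 CC and 0 SC-only among 18 in D2 SC. Cacna1c, the pore subunit of the L-type calcium channel Cav1.2, had 12 CC-only among 32 in D2 CC and 0 SC-only among 17 in D2 SC. The other genes of the first 10 were Ctnna2 (15 CC-only, 25.4% of its D2 CC peaks), Enox1 (14, 41.2%) and Magi2 (13, 21.0%). Lrp1b (25.5%), Dab1 (26.1%) and the metabotropic glutamate receptor gene Grm7 (31.6%) had 12 each, and the neurexin gene Nrxn3 had 11 (20.8%). The ranking is by count, and of all D2 CC peaks in gene bodies 24.5% were CC-only. With lists of equal length the counts were 8 CC-only and 4 SC-only in Ptprn2, 4 and 3 in Celf2, and 8 and 1 in Cacna1c. They were 10 and 8 in Ctnna2, 6 and 6 in Enox1, 6 and 7 in Magi2 and 9 and 7 in Lrp1b. Dab1 had 10 and 6, Grm7 4 and 4, and Nrxn3 6 and 9.

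The 12 Cacna1c peaks had folds of 2.87 to 3.91, and 2 of them were in no other list. One lay at an annotated TSS (chromosome 6, 118780248 to 118780649, fold 3.20), with D1 CC as the one other list that held it. The strongest lay in the gene body (chromosome 6, 118722325 to 118722848, fold 3.91) and was in every other list but D1 SS.

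SC-only peaks were most numerous in Nav3, a microtubule-binding protein gene, with 10 CC-only among 28 peaks in D2 CC and 8 SC-only among 28 in D2 SC, and in the protein kinase C gene Prkce, with 8 CC-only among 26 and 8 SC-only among 25. The adhesion genes Cntn4 and Nrxn3 had 7 SC-only peaks each, and Tenm2, Anks1b, Lrp1b and Kcnip4 had 6 each. Ptprd and Ctnna2 had 5 each. Nrxn3, Lrp1b and Ctnna2 were thus among the first 10 genes in both directions, and 936 genes held both kinds of peak. With lists of equal length, Nav3 had 8 CC-only and 9 SC-only peaks, Prkce 2 and 8, and Cntn4 4 and 10. Tenm2 had 1 and 8, Anks1b 7 and 6, Kcnip4 6 and 8, and Ptprd 3 and 8. That cut removed D2 CC peaks alone. In the full lists Tenm2 had 8 CC-only and 6 SC-only peaks and Ptprd 8 and 5. There at least 10 CC-only peaks were held by 31 genes and at least 10 SC-only peaks by 0.

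**Figure D4:**
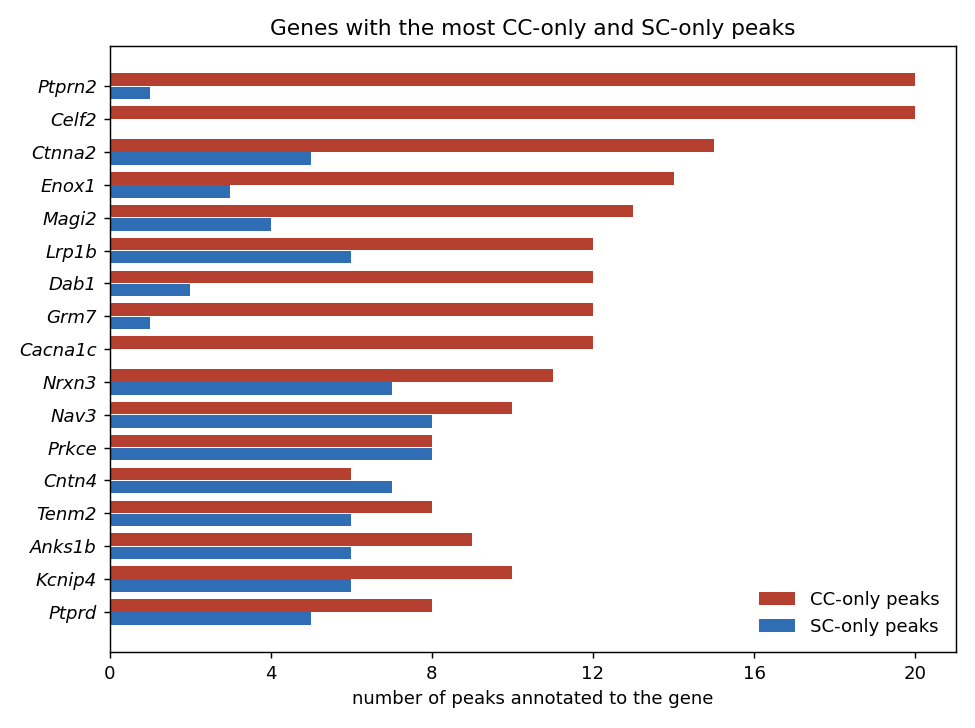
Number of CC-only (upper bar) and SC-only (lower bar) peaks in the genes with the most of either, with 17 genes from top to bottom. Ptprn2 and Celf2 have 20 CC-only peaks each, with 1 and 0 SC-only, while Nav3 has 10 CC-only and 8 SC-only peaks.

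Genes of the D2 MSN identity list held 22 CC-only among 84 D2 CC peaks (26.2%, 17.2 to 36.9%) and 3 SC-only among 65 D2 SC peaks (4.62%, 0.962 to 12.9%). Across all peaks with a gene name these shares were 18.8% CC-only and 6.14% SC-only. With lists of equal length the list held 16.2% CC-only (8.36 to 27.1%) and 7.69% SC-only (2.54 to 17.05%). All peaks with a gene name then stood at 11.9% and 10.8%, within these intervals. In the full lists all 22 CC-only peaks lay in gene bodies, among 63 D2 CC peaks there (34.9%, 23.3 to 47.97%). That interval holds the 24.5% of all gene-body peaks. Reln, the gene of an extracellular signalling protein, held 8 of these CC-only peaks and Ptprm, that of an adhesion phosphatase, 7. Drd2 had 10 peaks over 6039 bp in D2 CC and 7 over 3938 bp in D2 SC. Its 2 CC-only peaks lay in the gene body (chromosome 9, 49347586 to 49348089, fold 2.27, also in D2 SS, and 49378749 to 49379190, fold 2.13, in no other list), and both stayed CC-only with lists of equal length. Their folds were among the weakest of D2 CC.

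Sp9, a transcription factor needed for D2 MSN development, covered 2515 bp in D2 CC and 861 bp in D2 SC, with a promoter peak of 1322 bp in D2 CC and 578 bp in D2 SC and a CC-only peak (fold 2.33) that was lost at equal list length. Adora2a had 1627 bp in D2 CC and 1279 bp in D2 SC, Gpr6 1615 and 1503 bp. Penk had 1214 bp in D2 CC and 1790 bp in D2 SC, but the additional D2 SC peak overlaps a D2 CC peak that carries another gene name, and with 1 name per merged region it had 1214 and 1179 bp. Penk had no CC-only or SC-only peak. As a share of all covered bases, 10 of 13 D2 MSN genes with at least 1000 bp over both lists were higher in D2 CC and 3 lower, none by 2-fold, with a median log2 ratio of 0.16. The median over all 14273 genes tested was -0.07.

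D1 MSN genes held 14 CC-only among 85 D2 CC peaks (16.5%) and 6 SC-only among 75 D2 SC peaks (8.0%), and genes common to both MSN types 43 among 199 (21.6%) and 13 among 163 (7.98%). Drd1 had 2 shared promoter peaks over 921 bp in D2 CC and 837 bp in D2 SC. Pdyn had a CC-only peak at its promoter (chromosome 2, 129699791 to 129700118, fold 3.21), which was in all 4 D1 lists and in neither D2 SS nor D2 CS. It overlaps the Pdyn window printed above, and was lost from the D2 CC list at equal length. D2 SC had instead a small Pdyn peak 2.51 kb from the TSS (fold 3.65) that no other list held. Ppp1r1b, which encodes the cAMP-regulated phosphatase inhibitor DARPP-32, had 1303 bp in D2 CC and 637 bp in D2 SC, including a CC-only peak 2.06 kb upstream (fold 2.40). Foxp1, a striatal transcription factor gene, held 11 CC-only among 40 and 1 SC-only among 29 peaks, but 5 of each with lists of equal length.

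Immediate-early genes are those that neurons switch on within minutes of activity. The 20 genes held 2 CC-only among 33 D2 CC peaks (6.06%, 0.743 to 20.2%) and 0 SC-only among 26 D2 SC peaks, which allows up to 13.2%. These intervals hold the 18.8% and 6.14% of all peaks with a gene name. Promoters held 27 of the 33 and 22 of the 26, and of all promoter peaks 8.09% were CC-only in D2 CC and 2.21% SC-only in D2 SC. Both CC-only peaks belonged to Nr4a2, which had 3 peaks over 1666 bp in D2 CC and 1 over 653 bp in D2 SC. The first covered a promoter (chromosome 2, 57123774 to 57124413, fold 3.79) and was also in D2 SS, D2 CS, D1 CS and D1 CC. It overlaps the Nr4a2 window printed above, which holds the sequence TATTTATAG once and TGACG, on either strand, 4 times. The other lay 1.89 kb upstream of another TSS (chromosome 2, 57116830 to 57117029, fold 2.99). With lists of equal length 1 of the 2 remained CC-only. Among the other genes, covered bases stood with Arc at 1193 and 746 bp, Egr1 at 1478 and 1413 bp, Nr4a1 at 781 and 786 bp, Npas4 at 615 and 592 bp and Fos at 734 and 1045 bp in D2 CC and D2 SC. As a share of covered bases 6 of 17 were higher in D2 CC and 11 lower, none by 2-fold (median log2 ratio -0.07). Across all 14273 genes tested the median was also -0.07.

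Among later activity-regulated genes, Bdnf, which encodes a neurotrophin, had 4 peaks over 1764 bp in D2 CC and 2 over 1170 bp in D2 SC. Its 2 CC-only peaks lay at annotated promoters (chromosome 2, 109673934 to 109674393, fold 3.58, and 109693723 to 109693948, fold 3.11), both of them also in D2 SS, and both stayed with lists of equal length. The promoter peak that both lists shared had a fold of 5.09 in D2 CC and was in 5 other lists. The whole list held 7 CC-only among 40 D2 CC peaks (17.5%) and 1 SC-only among 33 D2 SC peaks (3.03%).

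Ion channel genes had the highest CC-only shares among lists with over 100 D2 CC peaks, though at equal list length their intervals held the share of all gene-body peaks. Calcium channel genes held 62 CC-only among 221 D2 CC peaks (28.1%, 22.2 to 34.5%) and 13 SC-only among 161 D2 SC peaks (8.07%, 4.37 to 13.4%), and 13 of the 15 had at least 1 CC-only peak. Next to Cacna1c stood Cacna1e with 8 among 36 D2 CC peaks, Cacna2d3 with 7 among 30 and Cacnb4 with 7 among 21. Cacna1d had 6 among 17 and Cacnb2 6 among 19. Potassium channel genes held 88 among 345 (25.5%, 21.0 to 30.5%) and 21 among 265 (7.92%, 4.97 to 11.9%). By count the BK channel gene Kcnma1 led with 11 CC-only among 32 and 2 SC-only among 25 peaks. The Kv4 partner Kcnip4 had 10 among 43 and 6 among 39, and Kcnq5 9 among 35 and 1 among 27. Of the D2 CC peaks in these lists, 174 of 221 and 294 of 345 lay in gene bodies. There the calcium channels held 32.2% (25.3 to 39.7%) CC-only and 8.20% SC-only, and the potassium channels 28.2% (23.2 to 33.7%) and 9.21%, against 24.5% CC-only and 8.56% SC-only for all gene-body peaks. With lists of equal length, the gene-body shares were 20.8% CC-only (14.2 to 28.8%) and 16.4% SC-only (10.3 to 24.2%) for calcium channels. For potassium channels they were 20.8% (15.8 to 26.5%) and 17.98% (13.2 to 23.6%). All of these intervals hold the shares of all gene-body peaks at equal length, 16.3% CC-only and 14.5% SC-only.

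Synaptic adhesion genes, which link pre- and postsynaptic membranes, were set beside all genes in the same way. They held 123 CC-only among 710 D2 CC peaks (17.3%, 14.6 to 20.3%) and 58 SC-only among 635 D2 SC peaks (9.13%, 7.01 to 11.6%). In gene bodies the shares were 18.2% (15.3 to 21.4%) CC-only and 9.98% SC-only, against the 24.5% and 8.56% of all gene-body peaks. With lists of equal length they were 9.98% CC-only and 14.2% SC-only over all their peaks, against 11.9% and 10.8% for all genes. In gene bodies at equal length they were 10.8% CC-only (8.29 to 13.7%) and 15.4% SC-only (12.5 to 18.6%). All gene-body peaks there stood at 16.3% and 14.5%. The SC-only interval thus held the share of all gene-body peaks, and the CC-only interval lay below it. As a share of covered bases 9 of 26 adhesion genes were higher in D2 CC and 17 lower, with a median log2 ratio of -0.03. Across all 14273 genes tested the median was -0.07, so lower values were the more frequent there too. Cadherins and protocadherins held 50 among 253 (19.8%) CC-only and 8 among 209 (3.83%, 1.67 to 7.40%) SC-only peaks.

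Dopamine and cAMP signalling genes held 22.8% CC-only and 7.20% SC-only, against 18.8% and 6.14% of all peaks with a gene name. In gene bodies they held 24.9% (19.7 to 30.8%) CC-only and 8.04% SC-only, near the 24.5% and 8.56% of all gene-body peaks. With lists of equal length these gene-body shares were 15.4% and 12.1%, against 16.3% and 14.5%. The phosphodiesterase gene Pde4d had 8 CC-only among 52 D2 CC peaks, a share below that of all peaks with a gene name. Pde1c had 7 among 21 and Pde10a 7 among 19. Creb1, the cAMP-responsive transcription factor gene, had 3710 bp in D2 CC and 1739 bp in D2 SC, with 2 CC-only peaks. Ionotropic glutamate receptors held 21.1% and 10.9%, metabotropic ones 22.5% and 5.95%, GABA-A receptors 17.4% and 9.76%, and axon guidance genes 20.9% and 7.17%, each CC-only share first. In gene bodies these 4 lists held 23.6%, 25.5%, 21.1% and 23.3% CC-only in that order, and 12.1%, 6.76%, 13.3% and 8.52% SC-only. Gria1, an AMPA receptor subunit gene, had 10 CC-only among 23 and 2 SC-only among 14 peaks. Opioid peptide and receptor genes held 17.6% and 6.25% of 17 and 16 peaks. MEF2, RAR and RXR factors held 23.5% and 9.30%, circadian clock genes 16.9% and 2.08%, chromatin and cocaine-linked regulators 15.0% and 8.16%, and housekeeping genes 16.7% and 11.1%. Cytosolic ribosomal protein genes, whose peaks are promoters, held 0 of 22 in both lists, which allows up to 15.4%.

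Markers of other cell types had few peaks. Those of astrocytes held 11 and 9 peaks in D2 CC and D2 SC, with 3 CC-only and 1 SC-only. Oligodendrocyte markers held 21 and 18 (3 and 1), microglial markers 5 and 4 (3 and 1), vascular markers 9 and 7 (2 and 0), and striatal interneuron markers 7 and 7 (0 and 0). Cortical excitatory markers held 25 in D2 CC, 7 of them CC-only (28.0%, 12.1 to 49.4%), and 16 in D2 SC, with 0 SC-only. The CC-only ones included 2 in Tbr1, a cortical transcription factor gene with no D2 SC peak, both found outside D2 CC as well, and 2 in Camk2a. Their part in the differences above was not tested. Taking each gene of the 26 lists once, 683 of 3328 D2 CC peaks (20.5%) were CC-only and 206 of 2784 D2 SC peaks (7.40%) were SC-only.

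**Figure D5:**
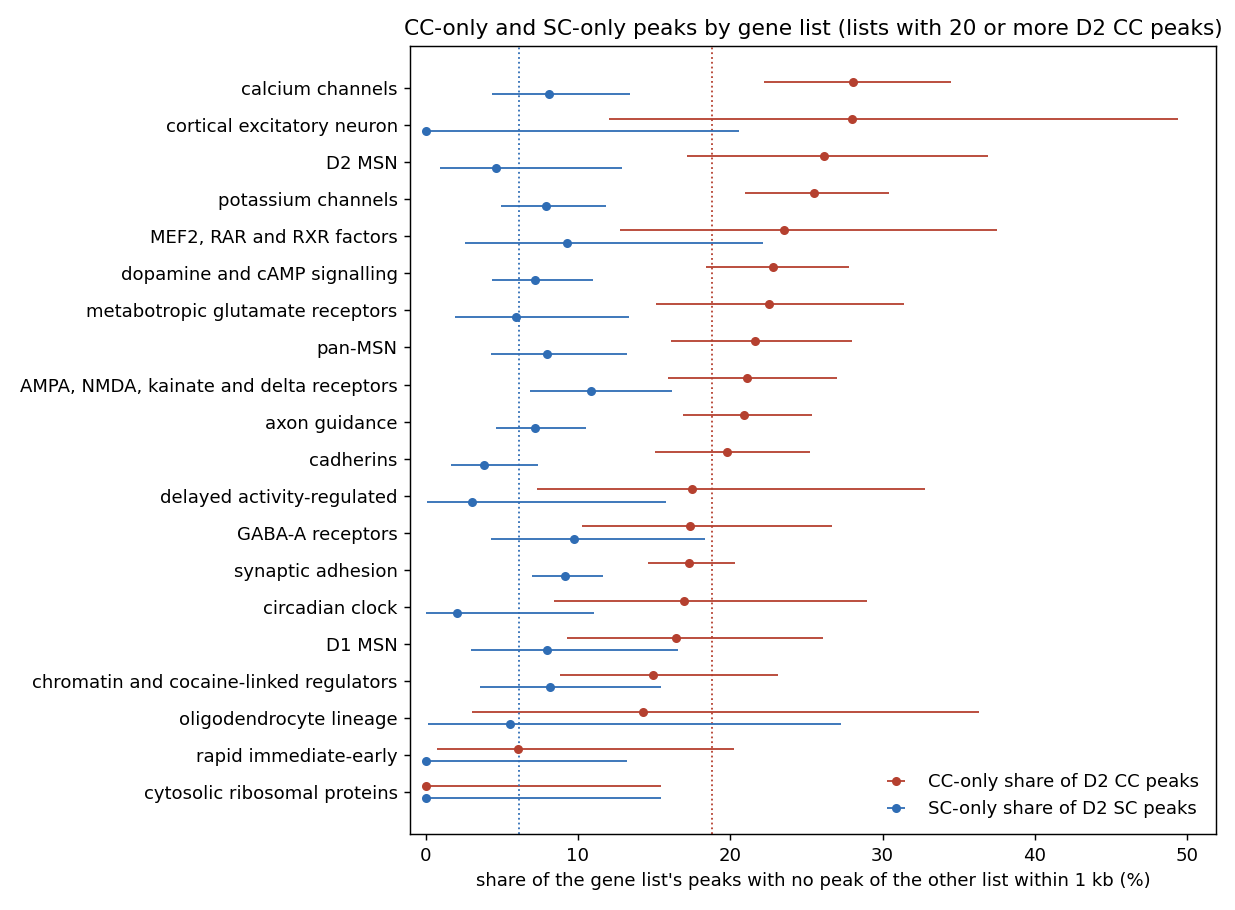
CC-only share of D2 CC peaks (upper point) and SC-only share of D2 SC peaks (lower point) in each gene list with 20 or more D2 CC peaks, with exact 95% intervals for counting error. Dotted lines mark all peaks with a gene name, 18.8% CC-only and 6.14% SC-only. Calcium channels stand at 28.1% and 8.07% and ribosomal protein genes at 0.

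At the level of whole genes the lists were alike. Of the 18142 genes with a peak, 15775 had one in both lists, 1702 in D2 CC alone and 665 in D2 SC alone. Protein-coding genes had a promoter peak in both lists in 10389 cases, in D2 CC alone in 778 and in D2 SC alone in 395. The bases covered in a gene were divided by all bases of the list and compared as a log2 ratio of D2 CC over D2 SC, with 500 bp added to each count. Of 14273 genes with at least 1000 bp over both lists, 129 (0.904%) were at least 2-fold higher in D2 CC and 60 (0.42%) at least 2-fold lower. Most of these calls followed naming, since a shared site could carry a different gene name in each list: 43 of the 129 had a CC-only peak and 5 of the 60 an SC-only peak. With 1 name per merged region, an alternative added after the data were seen, 27 were higher and 2 lower, and 26 and 2 of them were called under both namings.

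Gm43154, a noncoding gene, was the clearest case. It had 6 peaks over 2495 bp in D2 CC, 5 of them CC-only, and 1 peak over 208 bp in D2 SC, a log2 ratio of 1.84 under either naming. In the other direction the noncoding C230088H06Rik had 1 peak over 488 bp in D2 CC and 5 over 1592 bp in D2 SC, 4 of them SC-only (log2 ratio -1.22 under either naming). By contrast Ankmy2 (1.54), Uspl1 (1.51), Ubqln4 (1.496), Arsb (1.48), Dusp13 (1.45), AC061963.1 (1.39) and Apaf1 (1.37) had log2 ratios of 0.12 to 0.78 with merged names. On the lower side Kmt2a, a histone H3K4 methyltransferase gene, had a log2 ratio of -1.48, and -0.49 with merged names. Tubgcp3, Samd8, 4930509E16Rik, Fam76b, Rabl3, Tgfbrap1 and Rhbdd3 were at -1.24 to -1.01 and at -0.41 to 0.04 with merged names. Gm28437 (2.86), Gm15663 (1.4997) and Gm28438 (-2.56) had no peak left with merged names. Gm28437 and Gm28438 stand on 1 stretch of chromosome 1 that a D2 CC peak of 3834 bp and a D2 SC peak of 2443 bp both cover, so the pair is a difference of name.

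Promoter windows differed in base composition between the sets. Of the 32619 RefSeq windows of 300 bases, 476 met a CC-only peak and no other, 106 an SC-only peak, 11848 a peak in both lists and 19715 none. The CpG ratio, observed over expected, had a median of 0.54 under CC-only, 0.57 under SC-only and 0.80 under peaks in both lists, and 0.22 where neither list had one. A ratio of 0.6 or more was reached by 42.2% (37.7 to 46.8%) of CC-only, 44.3% (34.7 to 54.3%) of SC-only and 78.9% of windows in both. Windows overlap where a gene has several starts, so they are not independent.

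The motifs were AP-1 (TGANTCA), CRE (TGACGTCA), its core TGACG, which every CRE also contains, a MEF2 core (TATTTATAG), EGR (GCGNGGGCG), the E-box CAGCTG, a CTCF core (CCACNAGGG), the SP box GGGCGG, which an EGR match can overlap, and an RFX motif (GTTGCCA). They were searched on both strands, and a match describes letters, not binding. The SP box was in 47.5% of CC-only and 55.7% of SC-only windows, against 67.7% in both and 35.9% of all windows. TGACG was in 19.1% of CC-only and 24.5% of SC-only windows, against 34.3% in both and 20.9% of all. The E-box was in 14.1% (11.1 to 17.5%) of CC-only and 30.2% (21.7 to 39.9%) of SC-only windows, against 14.4% in both and 16.4% of all. AP-1 was in 6.51% and 10.4%, against 4.26% in both and 7.85% of all. EGR was in 7.35% and 13.2%, against 11.99% in both and 5.59% of all windows. The MEF2 core of the Nr4a2 window was in 0.454% of all windows and in 1 of the 476 CC-only ones. CRE, the CTCF core and the RFX motif were in 1.80%, 1.46% and 4.41% of all windows, and in 1.89%, 2.94% and 3.57% of the CC-only ones.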

How the data were processed

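ATAC-seq peak lists of D2 MSN nuclei, 1 list and 1 library each for CC and SC, were compared, with the lists of the 6 other groups. Per the submitters' processing notes, cutadapt, HISAT, SAMtools and MACS2 and the build mm10 were used. Their roles and versions, and whether libraries were pooled, are not given in the sources used here. Fold enrichment, a ratio per peak, comes from the deposited lists, which carry no common scale. The q-value of each peak, deposited by the authors on a linear scale, reached 0.0259 in D2 CC and 0.0403 in D2 SC. The region class, distance to a TSS and gene name of each peak are also the authors'. The lists hold 0 columns of a single library.

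Peaks on chromosomes 1 to 19 and X were used, the smallest 200 bp wide and none overlapping within a list. Overlap needed 1 bp. Shares have exact Clopper-Pearson intervals. Background pileup was estimated from steps between the 12 most frequent folds, taken as pileup plus 1 over background plus 1, and stands in for depth. Set steps were tested on simulated data, where 3000 of 3000 peaks were assigned correctly. RefSeq promoter windows and gene positions are of GRCm38.p6, and 15571 of 18142 gene names matched RefSeq.

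Named were the 10 CC-only and 10 SC-only peaks of highest fold in or within 1 kb of a gene (1 per gene), the first 5 of each at promoters and between genes, the 10 genes with the most peaks of each kind, the 10 with the largest log2 ratio in each direction and at least 2000 bp, the first 5 shared peaks, and members of 26 gene lists (404 genes). The members and lists were chosen with earlier results of these data known. Alternatives were a q of at most 1e-05, equal list length, the strongest 10000 peaks, 50% reciprocal overlap, no overlap or 5 kb in place of 1 kb, autosomes alone, promoters within 2.5 kb, presence within 1 kb, and other pseudocounts and minimum bases. Computation used matplotlib 3.10.9, scipy 1.17.1, pandas 2.3.3, numpy 2.4.6 and Python 3.11.15.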

Additional observations from a re-analysis of the deposited data

Results flagged for a closer look

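The D2 CC list held 4 peaks on the mitochondrial genome, which was not used in the comparison, against 3 in D2 SC and 2 in the baseline list D2 SS. The difference was not tested.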

How the results depend on the processing

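A q of at most 1e-05 in both lists gave 20.2% CC-only and 5.12% SC-only peaks, with 93.7% of D2 SC peaks shared. Promoters then made up 10.8% of CC-only and 28.1% of shared peaks, with each peak list cut before the sets were formed. Of the original CC-only and SC-only peaks that themselves had such a q, 43.9% and 39.2% were in D2 SS. Lists of equal length gave 12.7% CC-only and 11.3% SC-only, with 85.01% of D2 CC and 87.0% of D2 SC peaks shared, and promoter shares of 10.3% for SC-only and 27.3% for shared peaks, so that the SC-only promoter share (10.3%) stood above the CC-only one (9.32%). Among the strongest 10000 peaks, 0% were CC-only, 0% were SC-only and 100% of both lists were shared. A reciprocal overlap of 50% left 66.1% of D2 CC and 76.9% of D2 SC peaks shared. Counting every peak without overlap gave 22.7% CC-only and 8.31% SC-only, with promoter shares of 11.98% and 9.89%, and a distance of 5 kb gave 15.2% and 5.24%, with a CC-only promoter share of 9.26%. Promoters within 2.5 kb made up 15.9% of CC-only, 14.4% of SC-only and 31.3% of shared peaks. A peak within 1 kb counted as present put 41.2% of CC-only and 35.6% of SC-only peaks in D2 SS.

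Genes called higher in covered share numbered 223 with a pseudocount of 200 bp and 45 with 1000 bp. Without a minimum 343 were higher and 259 lower, with a minimum of 2000 bp 22 and 11, and with merged names 27 and 2. Members with a CC-only and an SC-only peak numbered 202 and 107, and 145 and 146 with lists of equal length. In all, 30 of the recomputed values stayed within their interval or within 1.5 times the count, and 50 did not. The cause of these changes was not tested. No paired analysis was possible because each group has 1 list and the lists hold no column per library, and no library could be left out. Sequencing depth per library is unknown here, so what it limits could not be measured beyond the background pileup.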
